A study of Gallus gallus with 4 samples.

Results

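Structural constituents of the ribosome that the gene ontology (GO) annotation does not place in a cytosolic ribosomal subunit were examined in ovaries of Ningdu Yellow chickens. All genes of the term structural constituent of ribosome (137 genes) were taken from the deposited GO tables, and those also listed under the cytosolic large or the cytosolic small ribosomal subunit were removed. This left 89 genes of the 17934 genes in the GO population. Of the 89, 39 (43.8%) were annotated to the mitochondrion and 50 (56.2%) were not, so the mitochondrial ribosomal proteins were not the larger part of the set by annotation. The set is therefore described by its rule, and the 50 genes without the mitochondrion term are called the other members.

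Ovaries of 2 sub-breeds that differ in the onset of sexual maturity were compared between 2 ages. In the early sub-breed, P-F-O2 (103 days, laying hens) was compared with P-F-O1 (32 days, before laying), here called the early comparison. In the late sub-breed, L-F-O2 (153 days) was compared with L-F-O1 (32 days, before laying), the late comparison. The sources differ on whether the L-F-O2 hens were laying, so the group is given by its age alone. All 4 groups were untreated hens of the same breed. Each library was an equal mix of ovary RNA from several hens, and each condition had 1 library, so no difference has a replicate check and age, laying state and library cannot be told apart. In whole ovaries, fewer cells of a type and less RNA per cell cannot be told apart.

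The deposited tables name, for each listed GO term, the genes that the authors called differentially expressed between the 2 ages (by a criterion on the fold change or on the p-value) and all genes of the term. They hold no level per library, no fold change and no direction, so the result for each gene was whether it was called in the early comparison, in the late comparison, in both or in neither. Across the whole population, 5037 genes (28.1%) were called in the early comparison and 4163 genes (23.2%) in the late comparison. These shares are the background for the counts of members. The population was not limited to genes detected in the ovary, and whether an uncalled member was detected is not known from these lists. The lists of genes compared below may also differ in expression level, and the part of level in the calls was not tested. A GO term appears in these tables only where its p-value in the authors' analysis was small, and the term that defines the set is among them in both, so its share of called genes was not independent of its being listed. The terms used below for the split and for the lists set beside the members also come from these tables. Their shares, and the contrasts between them, were therefore not independent of listing either.

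Animal cells hold 2 kinds of ribosome. The cytosolic ribosome translates nuclear messenger RNA and is built from a large and a small subunit, whose proteins carry the prefixes RPL and RPS. The mitochondrial ribosome translates the few messenger RNAs of the mitochondrial genome, which encode subunits of the respiratory chain, and its proteins (MRPL and MRPS) are encoded in the nucleus and imported. In the ovary, growing oocytes accumulate both ribosomes and mitochondria for use by the early embryo.

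In the early comparison, 31 of the 89 members (34.8%, against 28.1% of the population) were called. Those annotated to the mitochondrion and the other members lay on opposite sides of the background. Of the 39 members annotated to the mitochondrion, 5 (12.8%) were called. Of the 50 other members, 26 (52.0%) were called. In the late comparison, 21 of the 89 members (23.6%) were called, close to the 23.2% of the population. The split was again in the same order, with 2 of 39 members annotated to the mitochondrion (5.13%) and 19 of 50 other members (38.0%) called. The share in all 89 members thus combined a low share in the first group with a high share in the second, and the late value near the background described neither. No test was run on these shares, since the genes of 1 pair of libraries are not replicates.

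**Figure D1:**
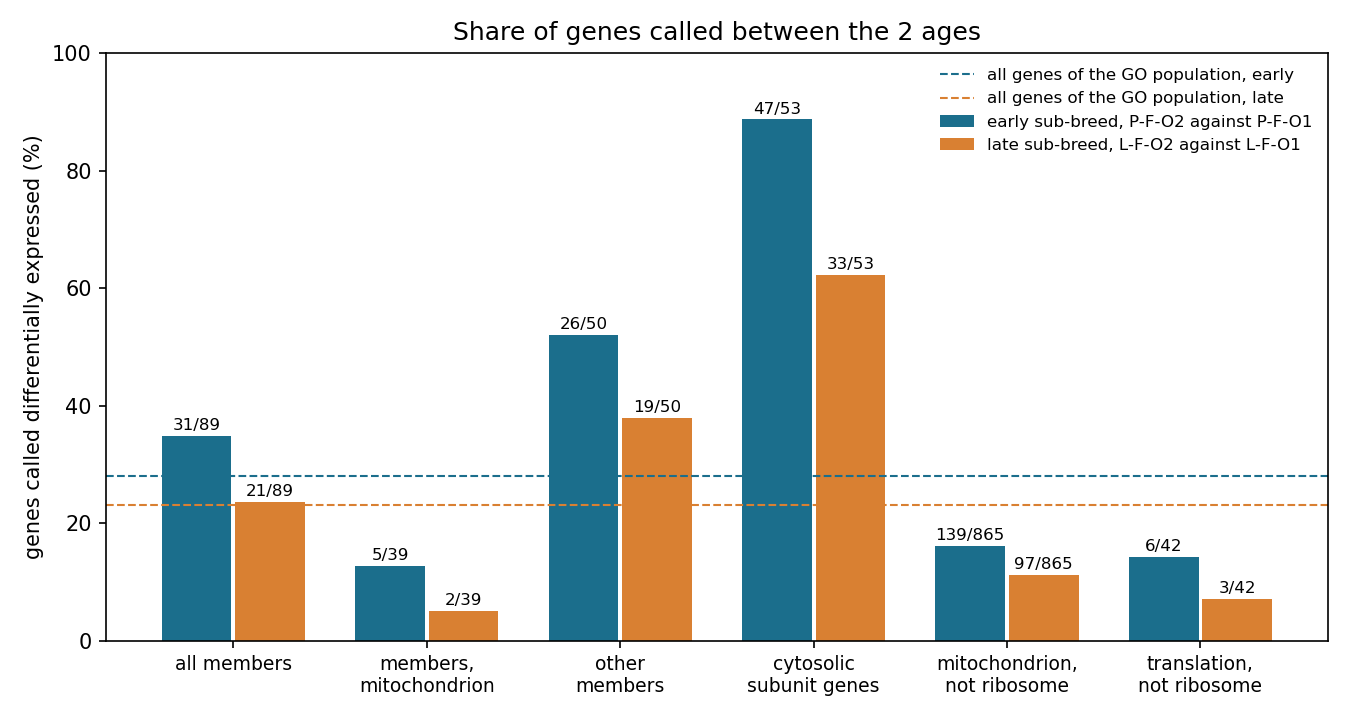
Percentage of genes called differentially expressed (y axis) in 6 lists of genes (x axis), for the early comparison (P-F-O2 against P-F-O1, blue) and the late comparison (L-F-O2 against L-F-O1, orange), with called genes over all genes printed on each bar and the population shares of 28.1% and 23.2% as dashed lines. The members annotated to the mitochondrion (12.8% and 5.13%) lie below both lines and the other members (52.0% and 38.0%) above them.

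The members annotated to the mitochondrion were set beside the rest of the organelle. Outside the structural constituents of the ribosome, 139 of 865 mitochondrion genes (16.1%) were called in the early comparison and 97 (11.2%) in the late comparison. Ribosomal members (12.8% and 5.13%) and the remaining mitochondrion genes were thus all below the background of their comparison. The mitochondrion term was itself listed for a small p-value in both comparisons, so these shares were not independent of its listing. For the narrower term mitochondrial part, which covers components of the organelle such as its membranes, 43 of 281 genes outside the set (15.3%) were called in the early comparison and 26 (9.25%) in the late comparison. Of the 15 members under that term, 3 (20.0%) were called in the early comparison and 2 (13.3%) in the late comparison. The 74 members outside it had 28 (37.8%) and 19 (25.7%) called, so with this narrower split the late share of the second group lay close to the 23.2% of the population.

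The other members were set beside the genes of the cytosolic subunit terms, 48 of which the rule had removed from the structural constituents. Of all 53 cytosolic subunit genes, 47 (88.7%) were called in the early comparison and 33 (62.3%) in the late comparison. The other members (52.0% and 38.0%) lay between these genes and the population in both comparisons. Genes of translation outside the structural constituents of the ribosome, a list that covers factors and enzymes of protein synthesis, had 6 of 42 genes (14.3%) called in the early comparison and 3 (7.14%) in the late comparison. In the wide term cytoplasmic part, which holds 88 of the 89 members, 641 of the 2740 genes that are no structural constituent of the ribosome (23.4%) were called in the early comparison and 454 (16.6%) in the late comparison. Shares above the background were therefore seen in the cytosolic subunit genes and in the other members, and not in the remaining translation genes or in the cytoplasmic genes at large. All these lists were drawn from listed terms, so this contrast was not independent of the listing. They were also not matched for expression level, so a higher share called is not shown to be a larger change.

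Of the 89 members, 19 were called in both comparisons, 12 in the early comparison alone, 2 in the late comparison alone and 56 in neither. Of all 11884 genes listed in either table, 2037 were called in both and 8099 in neither. A further 1165 were called in the early comparison alone and 583 in the late comparison alone. The shared genes were 61.3% of the members called in the early comparison and 90.5% of those called in the late comparison. Nearly all members called in the late comparison were thus also called in the early one. Of the 26 and 19 other members called, 18 were shared, or 69.2% of the early and 94.7% of the late calls. Among members annotated to the mitochondrion, 1 gene was shared, 4 were called in the early comparison alone and 1 in the late comparison alone. Across all genes listed in either table, the shared calls were 63.6% of the early and 77.7% of the late calls. These values are not a like background for the members. A gene listed in 1 table alone could be scored as called only in that comparison, whereas all 89 members were listed in both tables. How many genes were listed in 1 table alone is not given here. The lists do not show whether a shared gene changed in the same direction in both sub-breeds.

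**Figure D2:**
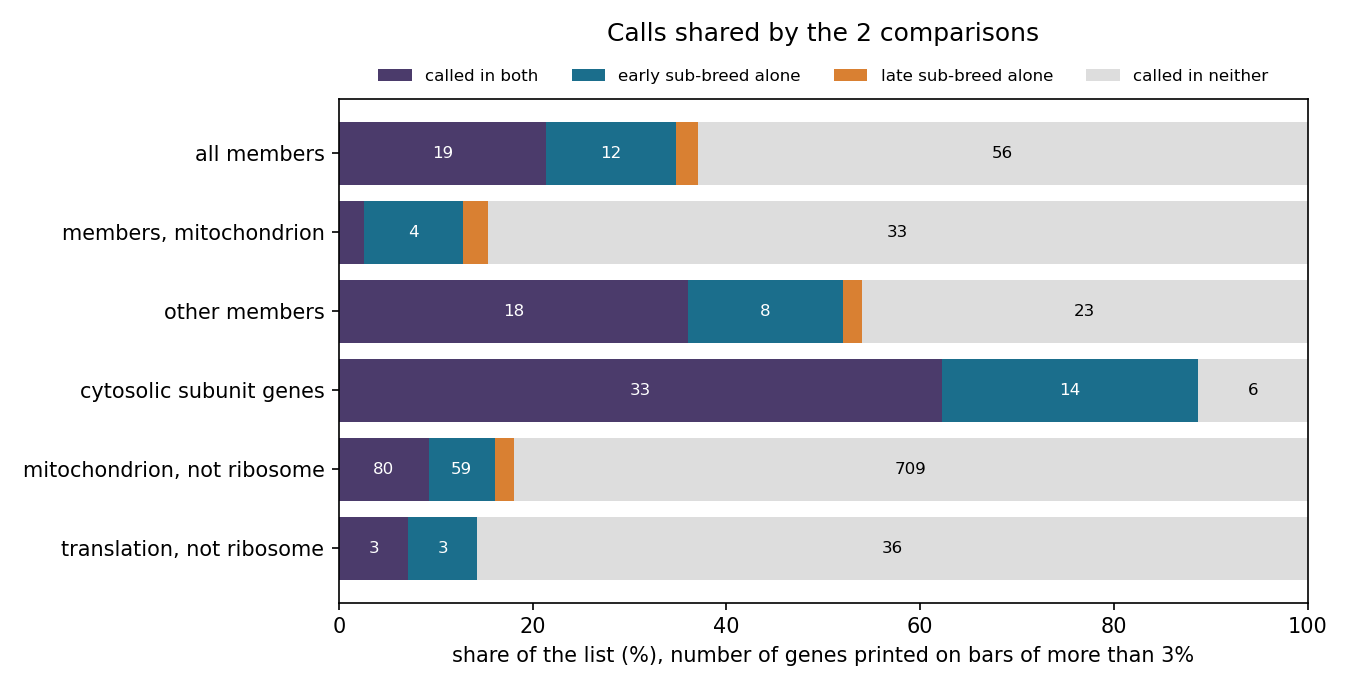
Share of each list (x axis, %) called in both comparisons, in the early comparison alone, in the late comparison alone and in neither, for the same 6 lists (y axis), with gene numbers printed on the larger bars. In the other members 18 genes were called in both and 8 in the early comparison alone, whereas 33 of the 39 members annotated to the mitochondrion were called in neither. Of all 11884 genes listed in either table, 8099 were called in neither.

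Names could be given to 17 of the 89 members. The names come from the study's gene table, of which the part used here covers called genes of the early comparison up to a given identifier. Of the 46 members within that range, 18 were called in the early comparison and 17 of these have a name. All 17 named members were therefore called in the early comparison by construction, and only their calls in the late comparison are a measurement. By name, 9 were cytosolic ribosomal proteins, 2 were mitochondrial ribosomal proteins and 6 were other proteins.

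The 9 cytosolic ribosomal proteins by name carried the ribosome term but neither cytosolic subunit term, and none was annotated to the mitochondrion. Of the 9, 5 (55.6%) were called in the late comparison as well as in the early one, near the 63.6% of early calls that were shared across all listed genes. Among them were RPL35 (ENSGALG00000001039) and RPL39 (ENSGALG00000008620), proteins of the large subunit near the exit of the nascent chain, RPS21 (ENSGALG00000005338), a protein of the small subunit, and a large-subunit gene described as 60S ribosomal protein L36a-like (ENSGALG00000004952). The remaining 4 were called in the early comparison alone. They were ribosomal protein L9 (ENSGALG00000000150), RPL17L (ENSGALG00000002696), RPL23A (ENSGALG00000003966), which lies at the exit tunnel and contacts targeting factors, and RPS4 (ENSGALG00000004831), a small-subunit protein. RPL17L, RPS4 and RPL39 matched a current reference gene only as synonyms of RPL17, RPS4Y1 and RPL39L. Ribosomal protein genes have closely related copies in many genomes, and how the authors' alignment divided reads between such copies is not known, so single calls in this family are uncertain.

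The 2 mitochondrial ribosomal proteins by name differed in both their annotation and their calls. MRPS21 (ENSGALG00000000456), a protein of the small mitochondrial subunit, was called in both comparisons. It was listed under mitochondrial part and small ribosomal subunit but not under mitochondrion, so the rule counted it among the other members. MRPL17 (ENSGALG00000002605), a protein of the large mitochondrial subunit, was called in the early comparison alone. It was annotated to the mitochondrion and its inner membrane, and it was the only named gene among the 39 members annotated to the mitochondrion. In all, 3 members were annotated to mitochondrial part and not to mitochondrion. When these were moved to the mitochondrial group, a split chosen after the values were seen, that group had 6 of 42 genes called in the early comparison (14.3%) and 3 of 42 in the late comparison (7.14%).

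The remaining 6 named members bear names of proteins with other known functions. They were NLRC5 (ENSGALG00000001256), a regulator of major histocompatibility complex class I genes in mammals, CYLD (ENSGALG00000003753), a deubiquitinase, TRPC5 (ENSGALG00000007972), a cation channel, PLEK2 (ENSGALG00000009562), a pleckstrin family protein, SPNS3 (ENSGALG00000001410), a member of the spinster transporter family, and a gene described as RANBP2-like and GRIP domain containing 1 (ENSGALG00000002590). The first 4 of these were called in both comparisons, and SPNS3 and the RANBP2-like gene in the early comparison alone. The GO lists of several of these identifiers held terms of the named function beside the ribosome terms. NLRC5 was listed under immune response and defense response, TRPC5 under ion channel activity, and CYLD under ubiquitin-dependent protein catabolic process. SPNS3 was listed under RNA binding and was the only called member among the 4 outside the ribosome term. Leaving out these 6 genes was a choice made after the values were seen. It left 25 of 83 members (30.1%) called in the early comparison and 17 of 83 (20.5%) in the late comparison. The other members then had 20 of 44 (45.5%) and 15 of 44 (34.1%) called. Named members were called in the early comparison by construction, so leaving them out could only lower the early shares. Of these 6, 4 were also called in the late comparison, so the late shares fell through the same choice. The lower shares are therefore no independent check. Unnamed members with terms of other functions were not left out.

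**Figure D3:**
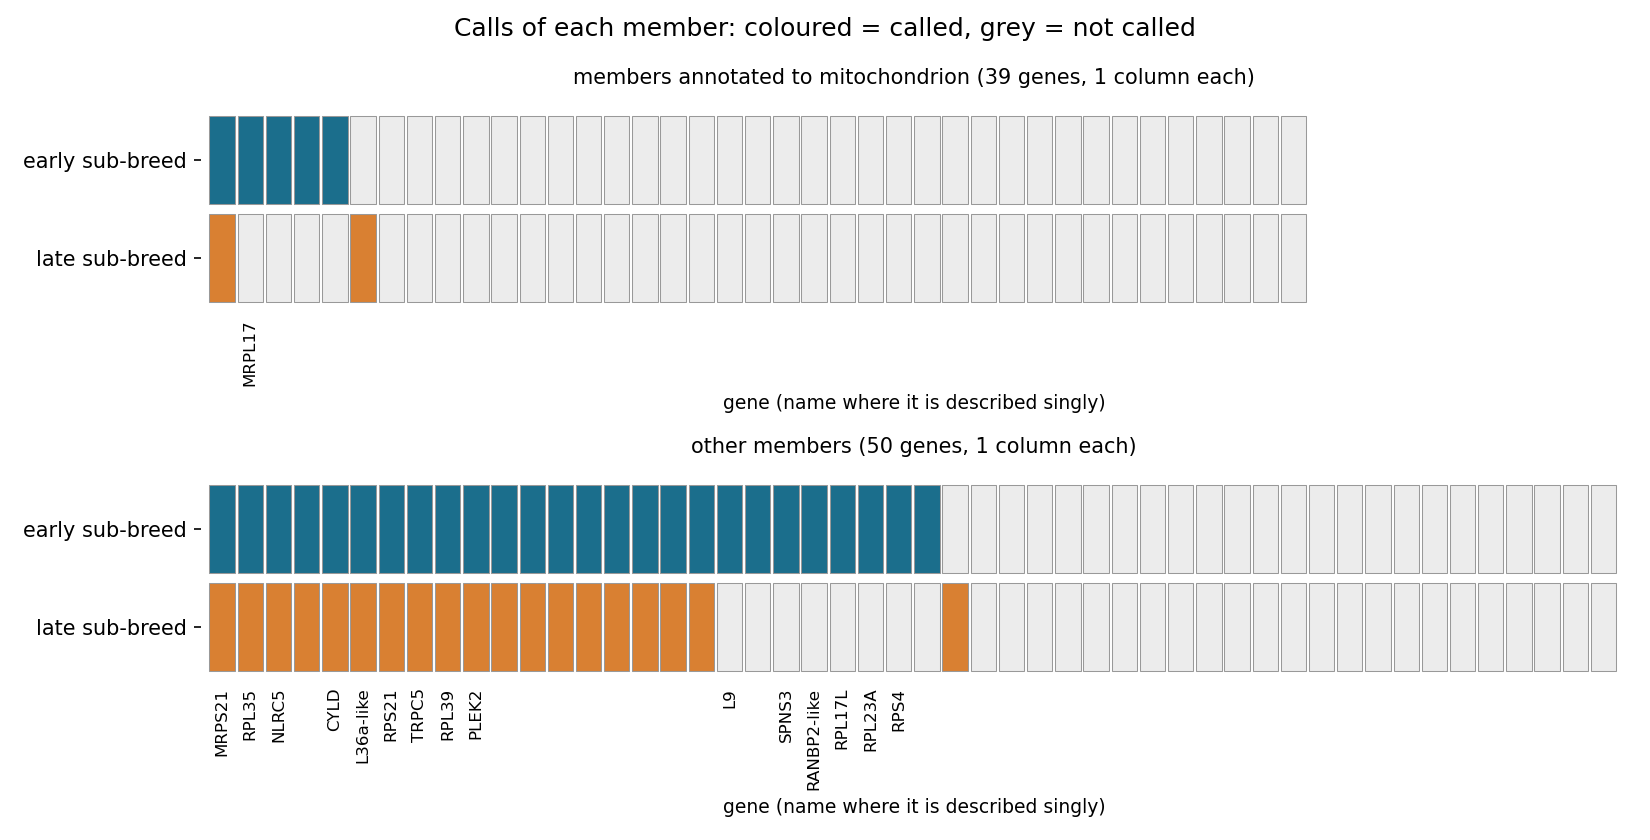
Calls of each member (1 column per gene) in the early comparison (upper row of each panel) and the late comparison (lower row), coloured where the gene was called and grey where it was not, with the gene name under the column where the gene is described singly. Of the 39 members annotated to the mitochondrion, 6 have at least 1 coloured cell, and of the 50 other members, 27 do. Of all 11884 genes listed in either table, 3785 were called in at least 1 comparison, with a gene listed in 1 table alone scored in that comparison only.

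No name could be given to 72 members, 38 of which were annotated to the mitochondrion. Among those 38, 4 (10.5%) were called in the early comparison and 2 (5.26%) in the late comparison. Among the 34 other members without a name, 10 (29.4%) were called in the early comparison and 9 (26.5%) in the late comparison. Of these, 8 were called in both. The shares of the population were 28.1% and 23.2%. Within the range covered by names, nearly all members called in the early comparison have a name. The early shares of the unnamed members are therefore lowered by construction. Their late shares are lowered through the same choice, since 10 of the 17 named members (58.8%) were also called in the late comparison. Neither share of the unnamed members can thus be read against the population. Both members called in the late comparison alone were without a name by construction, since names exist only for genes called in the early comparison. ENSGALG00000000514 was annotated to the mitochondrion and to the small ribosomal subunit. ENSGALG00000012547 was listed under the ribosome and also under transmembrane signaling receptor activity and plasma membrane part.

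By subunit term, 10 members were listed under the large ribosomal subunit and 8 under the small ribosomal subunit. Of the 10 with the large-subunit term, 1 was called in the early comparison, RPL17L, and 0 in the late comparison. Of the 8 with the small-subunit term, 3 were called in each comparison, 2 of them in both. The population shares were 28.1% and 23.2%. Several ribosomal proteins by name carry no subunit term, so these counts do not describe all proteins of a subunit. Ribosomal protein L9, RPL35, RPL23A, RPL39, the L36a-like gene and MRPL17 lack it, and so do RPS4 and RPS21. All were called in the early comparison by construction, and RPL35, RPL39, the L36a-like gene and RPS21 in the late comparison as well. Among the members annotated to the mitochondrion, 0 of the 6 with the large-subunit term were called in either comparison, and 1 of the 6 with the small-subunit term was called in each. The 27 with no subunit term had 4 calls in the early comparison and 1 in the late comparison. These groups are small, and 1 gene moves a share of 6 by 16.7 percentage points. The 44 other members with no subunit term held most of the calls, 23 (52.3%) in the early comparison and 17 (38.6%) in the late comparison.

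The members were also counted by a second annotation. Of the 13 members listed under RNA binding, 6 (46.2%) were called in the early comparison and 1 (7.69%) in the late comparison. All 6 were other members, of which 7 carried the term, and 0 of the 6 mitochondrion-annotated members with RNA binding were called in either comparison. Ribosomal protein L9, RPL23A, RPS4 and SPNS3 were among the 5 called in the early comparison alone. Under the wider term nucleic acid binding, 9 of 18 members (50.0%) were called in the early comparison and 2 (11.1%) in the late comparison. Members with catalytic activity had 2 and 3 of 10 genes called (20.0% and 30.0%), and members with the membrane term had 3 of 10 in each (30.0%). For all these terms, the shares of the population to set beside them are 28.1% (early comparison) and 23.2% (late comparison). Of the 3 members with ion channel activity, 2 were called in both comparisons, TRPC5 and a gene without a name. Of the 3 members with receptor activity, 0 were called in the early comparison and 1 in the late comparison. The terms overlap, so 1 gene can be counted under several of them, and whether the comparisons differ under a term was not tested.

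**Figure D4:**
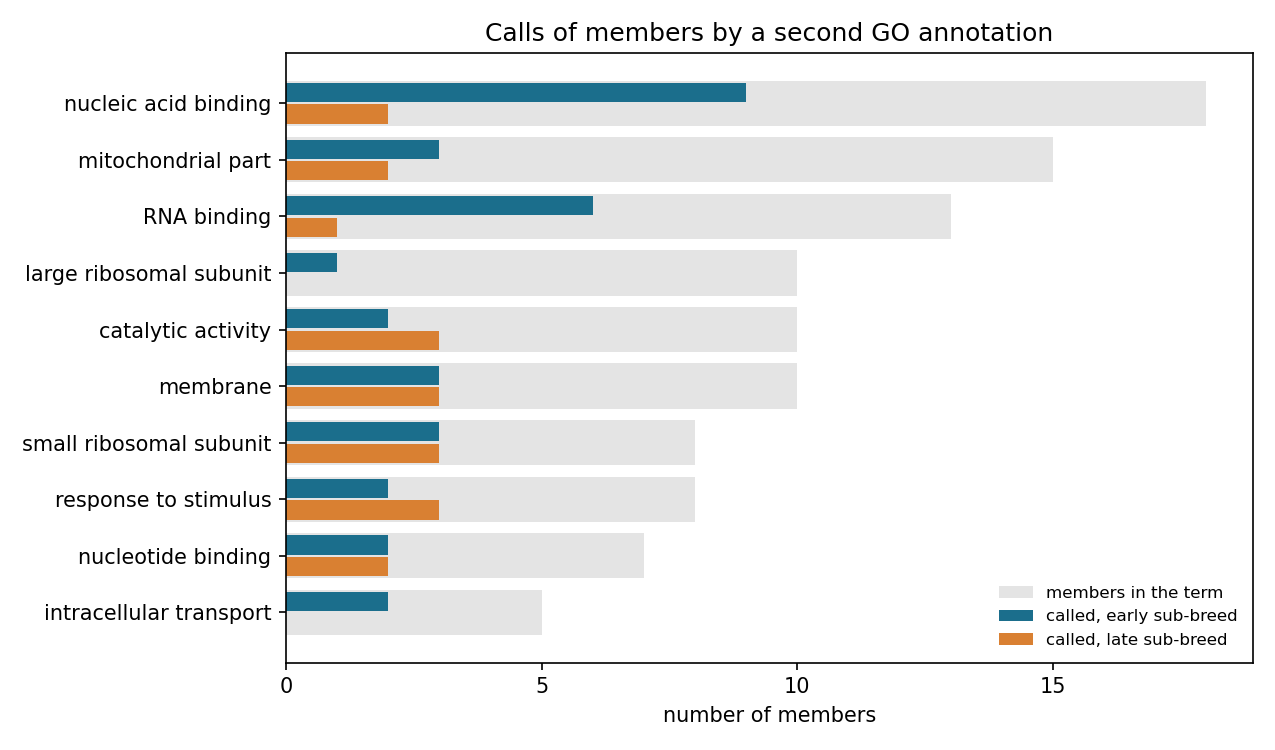
Number of members (x axis) listed under 10 further GO terms (y axis, grey bars), and the number of these called in the early comparison (blue) and the late comparison (orange). Under RNA binding 6 of 13 members were called in the early comparison and 1 in the late comparison. Under the large ribosomal subunit term 1 and 0 of 10 were called. Several large-subunit proteins by name do not carry that term.

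The deposited pathway tables (Kyoto Encyclopedia of Genes and Genomes, KEGG) named 3 of the 89 members, all in the ribosome pathway. These tables name called genes only, so their genes are called by construction. Ribosomal protein L9 and RPL35 were among the 3, all named in the early comparison. Of the 3, 2 were also named in the late comparison, RPL35 among them. The remaining 8 called genes of the pathway in the early comparison and 3 in the late comparison were cytosolic subunit genes. Nearly all identifiers in these tables run up to ENSGALG00000002896, and in that range 1 member annotated to the mitochondrion was called in each comparison. Neither of these was named in a pathway, which says little about the group.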

How the data were processed

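Ovary RNA of 4 pooled libraries had been sequenced by the authors, trimmed with SeqPrep and Sickle, aligned with TopHat to galGal4 and quantified as FPKM, and genes were called with Cuffdiff. The versions are not given in the sources used here. The deposited tables hold the authors' later GO (Goatools) and KEGG (KOBAS) results. Their gene lists and gene numbers were used, and their p-values were not. These tables hold no depth. By the study's read totals, the older library of each pair was the deeper, and the part of depth in the calls was not tested.

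In the late GO table, 44 broken identifiers were repaired, each completed from the 1 intact identifier that matched. Every list then had its deposited length. A member was called where any listed term named it as differentially expressed. All 89 members were listed in both tables. The reading was also run on simulated lists, but these were too simple for the check to fail, so it does not bear on the repairs. Names came from the study's gene table (names only) and were matched to an annotation of GRCg7b, 11 by symbol and 3 by synonym. No identifier matched directly.

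The named genes are every member with a name and the unnamed members called in the late comparison alone, except 1 that is counted but not reported singly here. Members, lists and alternatives were chosen with earlier results of these data known. No test across genes was run, because each condition had 1 library and genes are not replicates. Alternatives changed the defining term, the lists searched for calls, the handling of broken identifiers, the split and the members outside the ribosome term. Python 3.11.15 was used.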

Additional observations from a re-analysis of the deposited data

How the results depend on the processing

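For the 7 counts of called members (all members and both groups in each comparison, and all members in both comparisons), 45 alternative values were computed, of which 24 were identical to the reported count and 40 within 1.5 times of it. This tally compares counts and not shares. Dropping the broken identifiers left every count the same. A gene counts as called where any list names it, so that setting could hardly change a count. The values not within 1.5 times came from the split. With mitochondrial part in place of mitochondrion, 3 of 15 members of the mitochondrial group were called in the early comparison instead of 5 of 39. The shares moved further than the counts, since the groups changed in size. They were 20.0% and 13.3% in the mitochondrial group (early and late comparison, instead of 12.8% and 5.13%) and 37.8% and 25.7% in the other group (instead of 52.0% and 38.0%). The late share of the other group was then close to the background of 23.2%. That group then also held the members annotated to the mitochondrion but not to mitochondrial part, since only 12 of the 39 carried the narrower term. With the split by gene name among the 17 named members, the mitochondrial group had 2 of 2 called in the early and 1 of 2 in the late comparison, and the other group 15 of 15 and 9 of 15. Names exist only for genes called in the early comparison, so this split has fewer genes and its early shares carry no information. Its late shares are shares of early calls. Across all listed genes 63.6% of early calls were shared, a value that counts genes listed in 1 table alone as not shared. No paired analysis was possible because each condition had 1 library, and no library could be left out. The calls rest on the authors' criterion, and the depth of the libraries was not used here.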

Other observations

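The KEGG tables cover a narrow range of identifiers. Of the 181 distinct identifiers they name in both comparisons, 176 run up to ENSGALG00000002896 and 5 lie beyond it. Only 1647 of the 11884 genes in the GO lists (13.9%) have an identifier in that first range. Of the 89 members, 16 fall in the range and 73 lie beyond it. In the early comparison, 10 of the 16 (62.5%) and 21 of the 73 members (28.8%) were called, against 28.1% of the population. In the late comparison, 5 of the 16 (31.2%) and 16 of the 73 (21.9%) were called, against 23.2%. The share called among the 1647 listed genes of that range was not computed. Whether the 62.5% is particular to the members or general in the range is therefore not known. The 53 cytosolic subunit genes had 11 in the range, of which 8 were named in a pathway. The ribosome pathway had 11 background genes in both tables, with 11 called in the early comparison and 5 in the late comparison. This background is far smaller than the 53 cytosolic subunit genes and 89 members of the GO lists. The 11 of 11 is therefore not a share of all ribosome genes.

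Some identifiers carry a ribosome term beside terms of an unrelated function. Of the 89 members, 3 were listed under receptor activity, 1 of these under olfactory receptor activity as well, and 3 under ion channel activity. The receptor and channel groups have 1 gene in common. Of the genes in these groups, TRPC5 has a name and the others have none.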
